A study of Mus musculus with 6 samples.

Results

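The Slc25 family consists of carrier proteins that, with few exceptions, lie in the inner mitochondrial membrane and move metabolites between the cytosol and the mitochondrial matrix. Each carrier takes a narrow set of substrates, such as ADP and ATP, phosphate, aspartate and glutamate, citrate, carnitine esters, nucleotides, cofactors or iron, and many work by exchanging one substrate for another. In brain the family links glycolysis to respiration through the aspartate and glutamate carriers, supplies ATP for synaptic transmission, and includes members that neurons and glia use to different degrees.

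Members were all probe sets to which the platform annotation gives 1 gene symbol that begins with Slc25a and a number. There were 93 such probe sets of 45037 on the array outside its controls, and they belong to 44 of 18193 genes. A further probe set that names Slc25a37 among several symbols was left out. Of the 93 probe sets, 70 reached a mean intensity of 50 in at least 1 group and were tested, which left 38 genes. The other 23 probe sets, with group means of 3.27 to 48.9, were not tested. They include every probe set of Slc25a2, Slc25a13, Slc25a31, Slc25a41, Slc25a48 and Slc25a54. Just outside the minimum lay another probe set of Slc25a12 with an unbound mean of 48.9, and just inside it a second probe set of Slc25a10 with an unbound mean of 51.7. Slc25a21, Slc25a43 and Slc25a52 were not analysed here.

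Both groups came from cortex of untreated BAC transgenic mice of line ES691, which had been backcrossed for 3 to 5 generations to C57BL/6 from FVB. The transgene places a tagged ribosomal protein under S100a10 control, and translating ribosome affinity purification (TRAP) pulls down the tagged ribosomes with their mRNA. RNA from the precipitate makes up the TRAP group (3 samples), and the unbound group is made of 3 samples of whole cortex flow-through, which sample titles call input. The study compared cells that express S100a10, which its title names cortical pyramidal cells, with whole cortex. The series text warns that the S100a10 transgene labels some non-neuronal cells. All 6 samples started from 15 ng of RNA, so RNA per cell was not measured, and fewer cells of a type and less RNA per cell cannot be told apart. The labels call the samples biological replicates without saying how many animals each holds, and a p-value therefore speaks only of how these samples vary, in part perhaps for technical reasons. The number of arrays limits the precision.

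The driver gene S100a10 had an intensity of 14128 ± 1095 (SD) in TRAP and 2430 ± 451 in unbound RNA (n = 3 each), 5.86-fold higher in TRAP. Array medians were 31.3 to 31.6 in TRAP and 42.3 to 43.0 in unbound RNA, so values centred on the median and quantile-normalised values were examined beside the deposited ones. Centring raised the median over all genes by 0.44 on the log2 scale and quantile normalisation raised it by 0.21. In 53.6% of the 22591 tested probe sets at least 1 pair of arrays of the same group held exactly the same value, and in 0 of them did a TRAP array share a value with an unbound array. Repeats occurred in 35 of the 70 tested Slc25 probe sets, 50.0%, and in 13 of them all 3 arrays of a group were equal. Such repeats narrow the spread on which the p-values rest, and how far they lower the p-values of single genes was not tested. All 13 tested markers of meningeal fibroblasts were higher in TRAP, where their summed intensity was 37003 to 43713, against 1432 to 1750 in unbound RNA. Of these 13, 6 passed the level minimum only through TRAP and so had to be higher. Of 8 tested pyramidal neuron markers, 2 were called higher and 4 lower, where 23.2% and 45.6% of all genes were. After centring 3 were higher and 3 lower, where 47.4% and 22.1% of all genes were. Their summed intensities on the deposited values were 16963 to 17510 in TRAP and 18648 to 20626 in unbound RNA.

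Most Slc25 genes differed little between TRAP and unbound RNA, and a few differed strongly in either direction. Slc25a24, an ATP-Mg/phosphate carrier, was 4.42-fold higher in TRAP, and Slc25a20, the carnitine and acylcarnitine carrier, was 1.83-fold higher. Slc25a18, a glutamate carrier, was 5.08-fold lower and Slc25a27, a relative of the uncoupling proteins, 4.35-fold lower. The Slc25a27 probe set passed the level minimum only through the unbound group and so had to be lower. With each gene represented by its probe set of highest mean intensity, limma called 6 of 38 genes higher, 15.8%, where 23.2% of all 12070 genes were called higher. It called 19 lower, 50.0%, where 45.6% of all genes were called lower, and 13 were not called. In all, 65.8% of the Slc25 genes were called, against 68.8% of all genes, and the family's median log2 fold change was -0.20, against -0.21 for all genes. The groups did not overlap in 28 of the 38 genes, while 75.5% of all genes had no overlap. The shares and the median of the family thus lay near those of the whole array.

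Large changes were counted first on the deposited values. Only Slc25a24 was both called and at least 2-fold higher, 2.63% of the 38 genes, where 7.29% of all genes were. Slc25a18, Slc25a27, Slc25a34, Slc25a45 and Slc25a37 were called and at least 2-fold lower. These are 5 of 38 genes, 13.2%, where 13.3% of all genes were. Of these, Slc25a27 and Slc25a34 passed the level minimum only through the unbound group, so their direction was fixed by the filter. None of the 14 Slc25 genes with a mean intensity of 1000 or more changed by 2-fold, where 12.3% of the 4377 genes at that level did, and their log2 fold changes ran from -0.82 for Slc25a36 to 0.43 for Slc25a39. Of 16 genes between 250 and 1000, 3 changed by 2-fold, 18.8% against 20.4% of all genes in that range. Of 8 genes under 250, 3 did, 37.5% against 30.9%, and Slc25a27 and Slc25a34 are among these 3. After centring 3 of the 38 genes were called and at least 2-fold higher and 2 lower, where 14.4% and 6.30% of all genes were. After quantile normalisation 3 were higher and 4 lower in this way, where 10.4% and 8.65% of all genes were. Under both of these scalings the 3 higher genes were Slc25a24, Slc25a20 and Slc25a35.

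The split between higher and lower depended on the scaling. Of the calls among Slc25 genes, 24.0% were higher on the deposited values, 73.1% after centring and 47.8% after quantile normalisation, and the same shares over all genes were 33.7%, 68.3% and 50.7%. After centring, 19 Slc25 genes were called higher and 7 lower, where 47.4% and 22.1% of all genes were. After quantile normalisation, 11 were called higher and 12 lower, where 33.8% and 32.8% of all genes were. The 6 genes called higher, Slc25a24, Slc25a20, Slc25a35, Slc25a39, Slc25a32 and Slc25a38, kept their call under both other scalings. They are 15.8% of the 38 genes, where 23.1% of all genes were called higher under all 3 scalings. Both other scalings raised the median, and over all genes 2792 of 2797 higher calls were kept, so keeping one says little. Of the 19 called lower, 7 kept their call, namely Slc25a18, Slc25a27, Slc25a34, Slc25a45, Slc25a37, Slc25a36 and Slc25a51. They are 18.4% of the 38 genes, where 22.1% of all genes were called lower under all 3 scalings. Over all genes 2663 of 5505 lower calls were kept. The other 12 Slc25 genes lost their call as lower after centring, and for Slc25a3, Slc25a4 and Slc25a26 centring gave a call in the opposite direction.

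**Figure D1:**
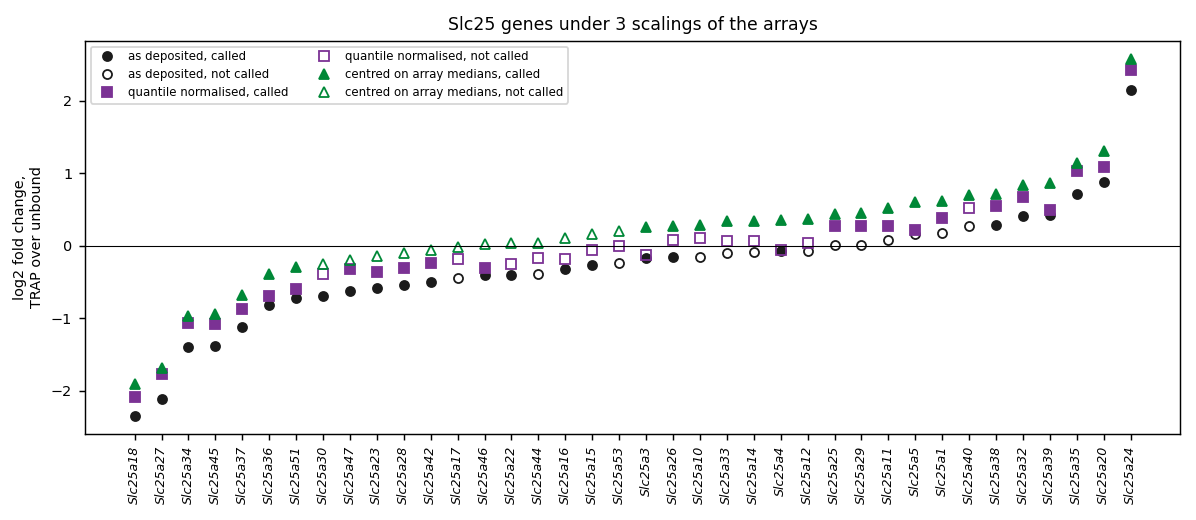
Log2 fold change of TRAP over unbound for the 38 tested Slc25 genes under 3 scalings of the arrays, ordered by the deposited values; filled symbols passed the limma test and open symbols did not. At the left end 7 genes and at the right end 6 genes are on the same side of 0 and filled under every scaling, and in between the sign or the call changes with the scaling for every gene except Slc25a17.

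Promoter sequence is shown for the called genes with the largest changes that have an entry in the RefSeq promoter table (GRCm38.p6), 2 higher and 2 lower in TRAP. Each window runs from 250 bases before to 50 after the gene's start and is printed 5′ to 3′ on the gene's strand. The windows are chr3:109122899-109123198 on the plus strand for Slc25a24, chr9:108661886-108662185 on the plus strand for Slc25a20, chr6:120773518-120773817 on the plus strand for Slc25a18 and chr4:141623785-141624084 on the minus strand for Slc25a34. Capitals mark GC boxes (GGGCGG, or CCGCCC on the other strand) and CCAAT boxes (CCAAT, or ATTGG on the other strand).
Slc25a24: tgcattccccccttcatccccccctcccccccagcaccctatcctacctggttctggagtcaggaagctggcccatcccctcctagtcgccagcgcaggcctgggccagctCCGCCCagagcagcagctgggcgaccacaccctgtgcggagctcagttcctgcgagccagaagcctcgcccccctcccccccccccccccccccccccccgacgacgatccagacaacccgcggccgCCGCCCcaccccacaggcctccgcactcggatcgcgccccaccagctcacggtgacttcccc
Slc25a20: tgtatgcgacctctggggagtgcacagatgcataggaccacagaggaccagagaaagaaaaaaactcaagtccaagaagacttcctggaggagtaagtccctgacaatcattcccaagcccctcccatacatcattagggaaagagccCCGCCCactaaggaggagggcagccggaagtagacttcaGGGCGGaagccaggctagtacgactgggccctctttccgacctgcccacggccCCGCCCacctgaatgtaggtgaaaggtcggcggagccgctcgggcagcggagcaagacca
Slc25a18: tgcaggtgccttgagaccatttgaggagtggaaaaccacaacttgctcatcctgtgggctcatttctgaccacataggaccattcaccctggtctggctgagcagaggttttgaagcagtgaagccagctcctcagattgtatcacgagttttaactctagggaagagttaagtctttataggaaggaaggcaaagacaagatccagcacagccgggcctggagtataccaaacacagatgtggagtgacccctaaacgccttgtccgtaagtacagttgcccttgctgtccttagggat
Slc25a34: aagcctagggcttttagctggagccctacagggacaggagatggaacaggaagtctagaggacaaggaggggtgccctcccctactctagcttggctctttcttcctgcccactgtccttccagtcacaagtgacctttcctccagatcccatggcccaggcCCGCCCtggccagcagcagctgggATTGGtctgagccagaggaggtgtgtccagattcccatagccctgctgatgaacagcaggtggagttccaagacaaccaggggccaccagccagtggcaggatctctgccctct
The window of Slc25a24 held 2 GC boxes and that of Slc25a20 held 3, while that of Slc25a34 held 1 GC box and 1 CCAAT box and that of Slc25a18 held neither. Their GC content was 72.3% for Slc25a24, 58.0% for Slc25a20, 49.3% for Slc25a18 and 59.0% for Slc25a34.

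Over the family, 43 windows of 34 genes were found. A GC box was present in 37 of them, 86.0%, where 35.6% of all 32817 windows held one, and a CCAAT box in 21, 48.8%, where 37.4% did. The palindromic NRF1 core of 10 bases was in 0 of 43 windows and in 0.966% of all windows, and TCAAGGTCA, a core bound by estrogen-related receptors, was in 0 of 43 and in 0.424%. Both strands were searched for each motif, and the motifs were counted independently of each other. These matches describe the windows only, and base composition was not matched.

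Among the ADP/ATP and phosphate carriers, the most abundant carriers of the inner membrane, differences were small. Slc25a4 and Slc25a5 exchange ADP for ATP, and Slc25a3 imports the phosphate that ATP synthase uses. Slc25a3 had intensities of 15908, 15908 and 15639 on the TRAP arrays, against 17754, 17618 and 18070 on the unbound arrays. All TRAP values lay below all unbound values, and the gene was called lower with a log2 fold change of -0.17 (SE 0.02, adjusted p = 0.0024), which turned to 0.26 after centring. Slc25a4 was at 29152 on each TRAP array, against 30853, 30853 and 30596 on the unbound arrays. There too the groups were apart, the log2 fold change was -0.08 (adjusted p = 0.026, and 0.078 with the replicate number as a block) and turned to 0.36 after centring, and its other 3 probe sets, at -0.03 to 0.39, were not called, except that the one at 0.39 was called higher with the block (adjusted p = 0.015). After centring all 4 were called higher. None of 8 probe sets of Slc25a5 was called by limma on the deposited values, with log2 fold changes of -0.21 to 0.44 and an unadjusted p under 0.05 in 1 of them, while after centring 7 of the 8 were called higher. Of these 8, 6 are of the Affymetrix type whose probes can bind other transcripts. The testis ADP/ATP carrier Slc25a31 was under the minimum.

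The ATP-Mg/phosphate carriers exchange magnesium-bound ATP for phosphate under the control of cytosolic calcium and so adjust the adenine nucleotide pool of the matrix. Slc25a24 had intensities of 543, 420 and 467 on the TRAP arrays, against 134, 112 and 82.5 on the unbound arrays. Every TRAP value was more than any unbound value, and the means were 477 ± 62.2 in TRAP and 109 ± 25.6 in unbound RNA (SD, n = 3 each), a log2 fold change of 2.14 (SE 0.21, adjusted p = 0.00056). It was 2.58 after centring and 2.42 after quantile normalisation. A second probe set of Slc25a24, under the minimum, gave 26.8, 15.6 and 21.0 in TRAP and 8.53 on each unbound array. The meningeal fibroblast markers, none of them at 0, were higher in the same TRAP arrays, 13 of 13 tested. Also higher in part were those of pericytes and smooth muscle. Of 7 tested, 5 were higher and 1, Rgs5, lower by -2.22, where 23.2% and 45.6% of all genes were. Their summed intensity was 5457 to 6819 in TRAP and 1951 to 2286 in unbound RNA. Of 5 markers of choroid plexus and ependyma, 3 were higher and 1 lower on the deposited values, where 23.2% and 45.6% of all genes were. Their summed intensity was 1122 to 1387 in TRAP and 299.5 to 3108 in unbound RNA. The higher ones include 2 that passed the level minimum only through TRAP. The part of these markers in the Slc25a24 result was not tested. Slc25a23, a calcium-regulated carrier of brain, moved the other way, with 608, 676 and 715 in TRAP, against 1078, 902 and 1004 in unbound RNA. The groups did not overlap, with a log2 fold change of -0.58 (adjusted p = 0.0038), and it was not called after centring, at -0.14. Slc25a25 was at 244, 253 and 258 in TRAP and at 245, 267 and 241 in unbound RNA, with overlap and a log2 fold change of 0.00. Limma called it higher after centring (0.44, adjusted p = 0.0013) and after quantile normalisation (0.27, adjusted p = 0.020). Slc25a41 was under the minimum.

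Aspartate and glutamate carriers serve the malate-aspartate shuttle, which carries reducing equivalents into the matrix, and the entry of glutamate for oxidation. Slc25a18, a glutamate carrier best known from astrocytes, had intensities of 119, 160 and 134 on the TRAP arrays, against 797, 616 and 681 on the unbound arrays. The groups were far apart, with means of 138 ± 20.6 in TRAP and 698 ± 91.8 in unbound RNA (SD, n = 3 each) and a log2 fold change of -2.34 (SE 0.15, adjusted p = 0.00012), which was the lowest of the 38 genes. It was -1.91 after centring and -2.09 after quantile normalisation. Of 9 astrocyte markers, none at 0, 5 were lower and 2 higher in TRAP, where 45.6% and 23.2% of all genes were. Their summed intensity was 14798 to 18265 in TRAP and 16306 to 24596 in unbound RNA. Of the 5 lower ones, 1 passed the level minimum only through the unbound group. Their part in the Slc25a18 result was not tested. Slc25a22, the other glutamate carrier, was at 2338, 2651 and 2596 in TRAP and at 3035, 3368 and 3635 in unbound RNA. It did not overlap and was called lower, by -0.40 (adjusted p = 0.011) on the deposited values and with no call at 0.034 after centring. Between the glutamate carriers the log2 fold change of Slc25a18 was lower than that of Slc25a22 by a difference of -1.94 (SE 0.19), which centring leaves as it is.

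Slc25a12, the aspartate-glutamate carrier of brain and muscle, gave different results by probe set. Its representative had 4057, 3593 and 3965 in TRAP and 4227, 3569 and 4458 in unbound RNA, overlapped and was not called. A second probe set had 297, 354 and 279 in TRAP, against 470, 501 and 501 in unbound RNA, without overlap, and was called lower by -0.67 (adjusted p = 0.0026), but not after centring (-0.23), where the representative was called higher (0.36). Slc25a13, the aspartate-glutamate carrier known from liver, was under the minimum, at 3.57 to 3.60 in TRAP and at 16.0 in unbound RNA.

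Carriers related to the uncoupling proteins and described in brain held both directions. Slc25a27, also called UCP4 and known from neurons, was at 39.2 on each TRAP array, against 179, 163 and 169 on the unbound arrays. It was called lower, with a log2 fold change of -2.12 (SE 0.04, adjusted p = 2.4e-06), and its 4.35-fold became 3.40-fold when values under 50 were raised to 50. The second tested probe set of Slc25a27 was also called lower, by a smaller -0.54, with 84.0, 79.5 and 79.5 in TRAP and 134, 102 and 120 in unbound RNA, and was not called after centring (-0.11) or quantile normalisation (-0.25). Slc25a34 had 43.2, 43.2 and 43.7 in TRAP, against 153, 80.2 and 123 in unbound RNA, without overlap and with a log2 fold change of -1.40 (SE 0.25, adjusted p = 0.0052). Both representatives passed the level minimum only through the unbound group, so that they had to be lower in TRAP, and neither was tested when both groups had to reach 50. Of 7 pan-neuronal markers 5 were lower and 1 higher in TRAP, where 45.6% and 23.2% of all genes were. After centring, however, 5 were higher and 1 lower, where 47.4% and 22.1% of all genes were. Their summed intensities were 92502 to 94427 in TRAP and 113624 to 118517 in unbound RNA, and their part in these results was not tested.

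The other members of this group were nearer to no change on the deposited values. Slc25a35 had 111, 121 and 88.3 in TRAP, against 61.7, 76.8 and 57.0 in unbound RNA. Its lowest TRAP value lay above the highest unbound one, and it was called higher by 0.71 (SE 0.17, adjusted p = 0.015), with adjusted p = 0.051 to 0.054 without TRAP replicate 1, unbound replicate 1 or unbound replicate 3. The log2 fold change of Slc25a35 was 1.15 after centring and 1.02 after quantile normalisation. Slc25a30 was at 78.6, 66.5 and 63.1 in TRAP and at 100.3, 154 and 89.4 in unbound RNA. It did not overlap, and its -0.69 (adjusted p = 0.047) was not called after centring, after quantile normalisation, with the replicate block (adjusted p = 0.065), or without any one of the TRAP replicates or unbound replicate 1 (adjusted p = 0.074 to 0.13). Slc25a14, also called UCP5, had 2271, 2924 and 2520 in TRAP and 2714, 2729 and 2729 in unbound RNA and overlapped, with a log2 fold change of -0.09.

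**Figure D2:**
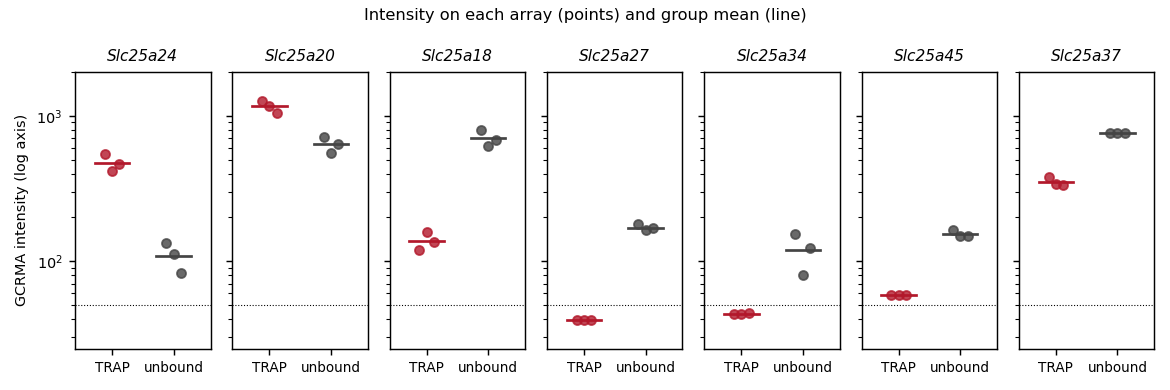
GCRMA intensity on a log axis for 7 Slc25 genes, a point for each array with TRAP left and unbound right and a line at the group mean; the dotted line is the level minimum of 50. TRAP points of Slc25a24 and Slc25a20 lie above all unbound points, those of the other 5 genes lie below, and for Slc25a27 and Slc25a34 the TRAP points are under 50.

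The dicarboxylate and tricarboxylate carriers move malate, 2-oxoglutarate and citrate, and none of the 3 tested was called by limma or had an unadjusted p under 0.05. Slc25a11, the 2-oxoglutarate carrier of the malate-aspartate shuttle, had 1401, 1302 and 1366 in TRAP and 1262, 1262 and 1322 in unbound RNA. The groups overlapped, and the log2 fold change was 0.08 (adjusted p = 0.13). The citrate carrier Slc25a1 had a log2 fold change of 0.18 (adjusted p = 0.22) and the dicarboxylate carrier Slc25a10 of -0.15 (adjusted p = 0.14). After centring all 3 were called higher, where 47.4% of all genes were.

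Of 6 tested amino acid and glutathione carriers, 2 were called higher, 1 lower and 3 not called, where 23.2% and 45.6% of all genes were called higher and lower. After centring 4 were called higher and 0 lower, where 47.4% and 22.1% of all genes were. Slc25a38, the glycine carrier that feeds heme synthesis, had 368, 343 and 382 in TRAP, against 308, 295 and 295 in unbound RNA. Its groups did not overlap, and the difference was 0.28 on the log2 scale (SE 0.05, adjusted p = 0.0053). Slc25a39, which carries glutathione into the matrix, had 9353, 9135 and 9181 in TRAP, against 7601, 6069 and 7022 in unbound RNA. Its representative was higher by 0.43 (SE 0.09, adjusted p = 0.0094) without overlap, and all 4 tested probe sets were called higher, with log2 fold changes of 0.29 to 0.60. All but the one at 0.60 are of the Affymetrix type whose probes can bind other transcripts. Slc25a40, the close relative of Slc25a39, had 722, 509 and 531 in TRAP and 612, 446 and 409 in unbound RNA. These ranges overlapped and the log2 fold change of 0.27 was not called (adjusted p = 0.31), but with the replicate number as a block it was (adjusted p = 0.023).

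Slc25a15 exchanges ornithine for citrulline. It had 966, 1004 and 870 in TRAP and 1205, 1138 and 1075 in unbound RNA, without overlap, and was called lower by -0.27 (adjusted p = 0.024), which turned to 0.17 without a call after centring. The call was lost without TRAP replicate 1, unbound replicate 1 or unbound replicate 2, at adjusted p = 0.055 to 0.068. Slc25a29, a carrier of basic amino acids, overlapped at a log2 fold change of 0.02, although 3 of its 5 probe sets were called lower, by -0.12 to -0.33, on the deposited values. After centring none was called lower and 4 of the 5 were called higher. Slc25a44, a carrier of branched-chain amino acids, was at 668 on each TRAP array and at 650, 1304 and 798 on the unbound arrays, with overlap and no call. Its second probe set, at -0.43, was not called either (adjusted p = 0.051), but was called lower with the replicate block (adjusted p = 0.0047). Slc25a2 was under the minimum.

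Slc25a20 exchanges acylcarnitines for carnitine and thereby brings long-chain fatty acids to beta oxidation. It had intensities of 1266, 1172 and 1039 in TRAP, against 716, 551 and 635 in unbound RNA. The lowest TRAP value was above the highest unbound value, and the means of 1159 ± 114 in TRAP and 634 ± 82.4 in unbound RNA (SD, n = 3 each) gave a log2 fold change of 0.87 (SE 0.12, adjusted p = 0.0024), 1.31 after centring and 1.09 after quantile normalisation. Its second probe set, with 432, 356 and 327 in TRAP and 319, 261 and 280 in unbound RNA, pointed the same way by 0.37 without overlap but was not called (adjusted p = 0.057), while with the replicate number as a block it was (adjusted p = 0.017), and after centring too.

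Both tested relatives of Slc25a20, whose substrates are less settled, were called lower on the deposited values, where 45.6% of all genes were. Slc25a45 was at 58.8 on each TRAP array, against 165, 148 and 148 on the unbound arrays. Its groups were 2.61-fold apart, a log2 fold change of -1.38 (SE 0.05, adjusted p = 1.8e-05). Slc25a47, known from liver, had 75.4, 71.7 and 75.4 in TRAP, against 106, 122 and 116 in unbound RNA. It did not overlap and was called lower by -0.63 (adjusted p = 0.00058), but not after centring, where its log2 fold change was -0.19. Slc25a29 is the next protein-coding gene beside Slc25a47 in the RefSeq table, at a log2 fold change of 0.02. Slc25a48 was under the minimum.

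Of 8 tested nucleotide and cofactor carriers, 5 were called lower and 1 higher on the deposited values (45.6% and 23.2% of all genes), and 2 lower and 3 higher after centring (22.1% and 47.4% of all genes). Slc25a51, which imports NAD into the matrix, had 3308, 3099 and 3099 in TRAP, against 5139, 5457 and 5139 in unbound RNA. Its groups did not overlap, with a log2 fold change of -0.73 (SE 0.04, adjusted p = 1e-04) that was -0.29 and still called after centring. Its second probe set, with 1169, 1090 and 1090 in TRAP and 1444, 1416 and 1416 in unbound RNA, was lower by -0.35. The third probe set was at 7.10, 7.84 and 7.23 in TRAP, against 221, 173 and 203 in unbound RNA, 3.96-fold lower when values under 50 were raised to 50. That probe set passed the minimum only through the unbound group and so had to be lower. All 3 were called lower on the deposited values, and the second turned to 0.083 without a call after centring.

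Slc25a36, a carrier of pyrimidine nucleotides, had 3665, 3447 and 3038 in TRAP, against 6437, 5683 and 5777 in unbound RNA. No TRAP value reached the unbound ones, and the log2 fold change was -0.82 (SE 0.09, adjusted p = 0.00090). A second probe set of Slc25a36 was called lower by -0.91 and the third, at -0.37, was not called except with the replicate block (adjusted p = 0.024). Slc25a33, the related pyrimidine nucleotide carrier, had a log2 fold change of -0.10 without a call, a difference of -0.72 (SE 0.09) between Slc25a36 and Slc25a33. Slc25a42 and Slc25a16, both tied to coenzyme A, were lower by -0.50 and -0.33, and Slc25a26, which imports S-adenosylmethionine, by -0.16, with no call for Slc25a42 and Slc25a16 after centring and a call as higher for Slc25a26. Slc25a17, the peroxisomal carrier of the family, was at -0.45 without a call.

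Slc25a32, which is tied to the import of folate and FAD, was the 1 cofactor carrier called higher. It was at 247 on each TRAP array, against 221, 186 and 157 on the unbound arrays. This probe set is of the Affymetrix type whose probes can bind other transcripts. The ranges did not meet and the log2 fold change was 0.40 (adjusted p = 0.040), but the call was lost with the replicate block (adjusted p = 0.055), which gave one to its second probe set (0.51, adjusted p = 0.019), and without any one of the TRAP replicates or unbound replicate 2 or 3 (adjusted p = 0.053 to 0.10).

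The mitoferrins bring iron to the matrix for heme and iron-sulfur clusters. Slc25a37, mitoferrin-1, had 381, 340 and 335 in TRAP, against 761 on each unbound array. All TRAP values lay far under the unbound value, and the log2 fold change was -1.12 (SE 0.06, adjusted p = 5.3e-05), -0.68 after centring. Slc25a28, mitoferrin-2, had 632, 614 and 575 in TRAP, against 944, 860 and 846 in unbound RNA. It did not overlap and was called lower by -0.54 (adjusted p = 0.00098), but at -0.10 it was not called after centring. The log2 fold change of Slc25a37 was below that of Slc25a28 by a difference of -0.58 (SE 0.06).

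The members with no substrate assigned here were 1 gene called lower and 1 not called, where 45.6% of all genes were called lower. Slc25a46, an outer membrane protein that takes part in mitochondrial dynamics, had 4751, 4110 and 4255 in TRAP, against 5892, 5864 and 5637 in unbound RNA. It did not overlap, and its representative and its second probe set were called lower by -0.41 and -0.43, with no call for either after centring. Slc25a53 had a log2 fold change of -0.23 without a call in its representative and of -0.68 with a call in its second probe set. Slc25a54 was under the minimum.

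**Figure D3:**
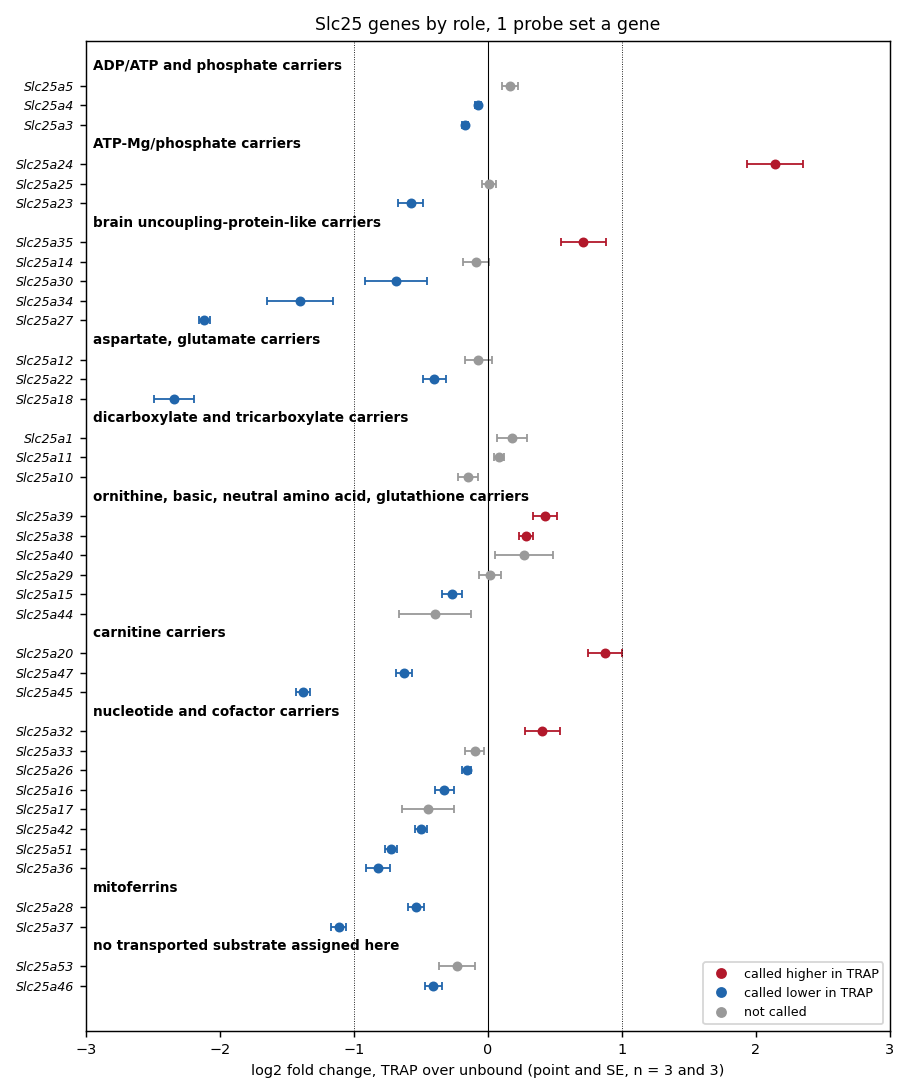
Log2 fold change of TRAP over unbound with its SE for the 38 tested Slc25 genes on the deposited values, 1 probe set a gene, grouped by role; red is called higher, blue called lower and grey not called, and dotted lines mark a 2-fold change. Genes of the same role lie on both sides of 0 in most groups, as Slc25a24 at 2.14 and Slc25a23 at -0.58 do, while both mitoferrins are lower.

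Relatives with the same or a similar substrate were also set side by side, in 8 pairs chosen after the values were seen and so given without a test. In 6 of the 8 pairs the difference in log2 intensity between the relatives, taken array by array, did not overlap between TRAP and unbound RNA. Of all single genes, 75.5% had no overlap, and the share over pairs of other genes was not computed. In log2 fold change Slc25a24 stood above Slc25a23 by 2.72 (SE 0.26) and above Slc25a25 by 2.14 (SE 0.23). Slc25a4 and Slc25a5 differed by -0.24 (SE 0.06). The differences overlapped for Slc25a39 and Slc25a40, at 0.16 (SE 0.20), and for Slc25a16 and Slc25a42, at 0.17 (SE 0.11).

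By limma, 0 of 17 genes with several tested probe sets were called both higher and lower, where 10.1% of all such genes were. The median range of log2 fold changes within a gene was 0.34 in the family and 0.48 over all such genes. Over single probe sets, 9 of 70 were called higher and 30 lower, where 20.6% of all probe sets were called higher and 47.7% lower. In all 55.7% were called, against 68.3% of all probe sets.

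**Figure D4:**
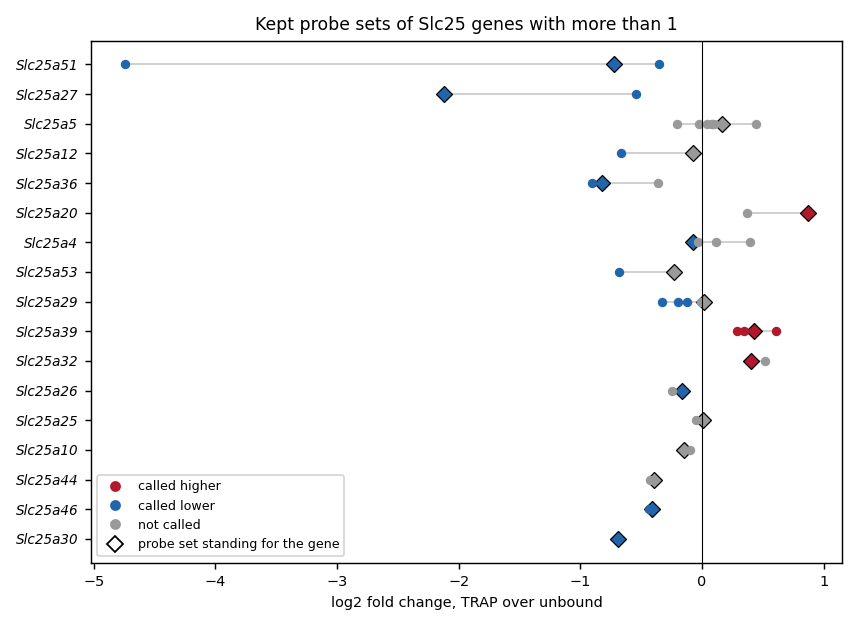
Log2 fold change of TRAP over unbound for each tested probe set of the 17 Slc25 genes with more than 1, ordered by their range within the gene; diamonds are the probe sets that stand for the gene. The leftmost point is a Slc25a51 probe set at 7.10 to 7.84 in TRAP, so its distance from 0 is not a measured size, and no gene has both red (called higher) and blue (called lower) points.

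Genes that work with the carriers were read from 13 lists of mitochondrial genes, of which 79 genes were tested. Of these, 28 were called higher, 27 lower and 24 not, with a median log2 fold change of 0.07, against 23.2% called higher, 45.6% called lower and a median of -0.21 for all genes. After centring 53 were called higher and 8 lower, where 47.4% and 22.1% of all genes were.

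Around the fatty acid route of Slc25a20, 4 of 9 tested genes were called higher and 1 lower, where 23.2% and 45.6% of all genes were. After centring 7 were higher and 0 lower by limma, where 47.4% and 22.1% of all genes were. Cpt2, which converts acylcarnitine back to acyl-CoA in the matrix, had a mean intensity of 275.8 in TRAP and 93.7 in unbound RNA, a log2 fold change of 1.56 (adjusted p = 1.1e-06). Cpt1a, which makes acylcarnitine at the outer membrane, was higher by 0.83 (adjusted p = 1.3e-05). Acadl, a long-chain acyl-CoA dehydrogenase, was higher by 0.52 and Crat, carnitine acetyltransferase, by 0.14. Cpt1c, the brain member of the Cpt1 family, was lower by -0.47, without a call after centring, and Hadha and Hadhb, the subunits of the trifunctional protein, were not called. Median log2 fold change over the list was 0.21.

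Around the aspartate and glutamate carriers, 5 of 6 shuttle enzymes were lower on the deposited values, where 45.6% of all genes were. After centring 2 of 6 were lower and 2 others higher, where 22.1% and 47.4% of all genes were. Gpd1, the cytosolic glycerol phosphate dehydrogenase, had a log2 fold change of -1.78 (adjusted p = 1.7e-05) and its mitochondrial partner Gpd2 of -1.05 (adjusted p = 0.00012), and both were still called lower after centring. Mdh1 and Got2, the cytosolic malate dehydrogenase and the mitochondrial aspartate aminotransferase, were lower by -0.30 each, and after centring Mdh1 was called higher and Got2 was not called. Glud1, the glutamate dehydrogenase of the matrix, was lower by -1.27 (adjusted p = 0.00010), and Glul, the glutamine synthetase of astrocytes, by -0.17, with a call as higher after centring.

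Around ornithine, Oat, which converts it in the matrix, was higher by 0.73 and Arg2, which makes it, was lower by -0.80, though it passed the level minimum only through the unbound group and so had to be lower. Odc1, which uses it for polyamines, was lower by -0.33 without a call after centring. Of 4 one-carbon enzymes that depend on folate, 2 were lower, where 45.6% of all genes were. These were Shmt2 by -0.54 and Mthfd1l by -0.22, the first without a call and the second called higher after centring. Of the mitochondrial kinases, Ak4 was lower by -0.82 and Ckmt1 by -0.78, without a call for Ckmt1 after centring, and Ak3 was higher by 0.43.

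The import machinery, which brings nuclear-encoded proteins such as the carriers into mitochondria, had 10 of 16 tested genes called higher and 2 lower, where 23.2% and 45.6% of all genes were. After centring 13 were higher and 1 lower, where 47.4% and 22.1% of all genes were. Its largest changes were in Timm8b at 1.10, Timm13 at 0.88 and Timm17b at 0.82 and, in the other direction, in Timm44 at -1.06. Timm22, the channel that inserts carriers into the inner membrane, was higher by 0.43 (adjusted p = 5.3e-05). Timm9 and Timm10, the chaperones that carry them across the intermembrane space, were at 0.18 without a call and at 0.39 with one.

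Other transport and energy genes were mixed. Mpc1, a subunit of the pyruvate carrier, was higher by 0.47, Mtch2 and Mtch1, family members of the outer membrane, by 0.30 and 0.23, and Smdt1 and Mcu of the calcium uniporter by 0.46 and 0.34. The outer membrane channel Vdac1 was lower by -0.28, with a call as higher after centring, and Vdac2 and Vdac3 were not called. Of 21 tested genes of the citric acid cycle and its entry, 5 were higher and 7 lower, where 23.2% and 45.6% of all genes were. After centring 14 were higher and 0 lower by limma, where 47.4% and 22.1% of all genes were. The largest changes in this list were Suclg2 at 1.08, Pdhb at -0.57, Ogdh at -0.54 and Cs at -0.49. Of the regulators of mitochondrial biogenesis, Ppargc1b was lower by -1.62, Ppargc1a by -1.12 and Esrra by -0.24, the last called higher after centring, and Tfam and Nrf1 were higher by 0.45 and 0.28.

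**Figure D5:**
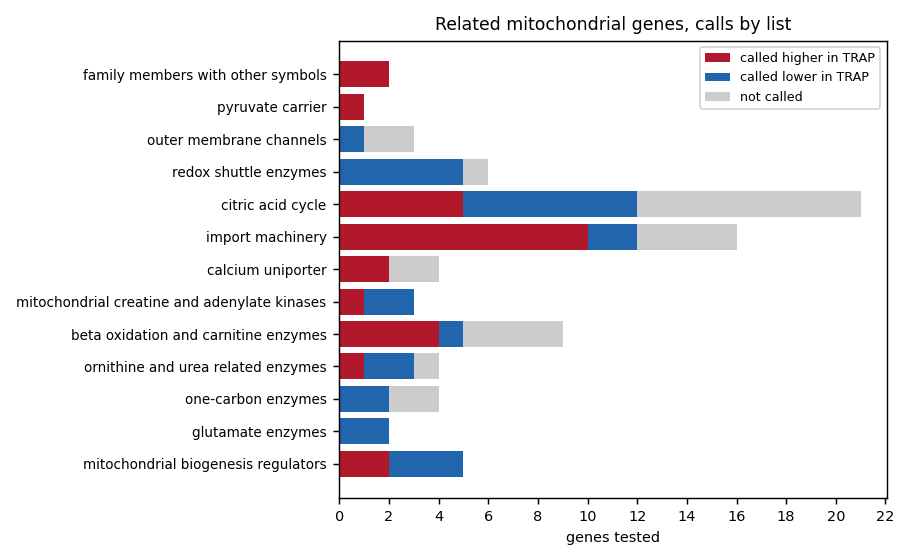
Number of tested genes called higher in TRAP (red), called lower (blue) and not called (grey) in 13 lists of mitochondrial genes related to the carriers, on the deposited values. The import machinery has 10 higher and 2 lower, the beta oxidation list 4 and 1, and the redox shuttle enzymes 0 and 5.

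Markers of other cells also differed between the groups, where 23.2% of all genes were called higher and 45.6% lower on the deposited values. Oligodendrocyte markers were lower in 8 of 9 cases, with summed intensities of 9127 to 14741 in TRAP and 52634 to 58300 in unbound RNA. Microglial markers were lower in 7 of 8, at 520 to 755 in TRAP and 1590 to 2075 in unbound RNA, and those of interneurons in 7 of 8, at 13012 to 16558 in TRAP and 38582 to 39752 in unbound RNA. Of 6 endothelial markers 3 were higher and 3 lower (4 and 1 after centring), at 5135 to 5670 in TRAP and 1275 to 1338 in unbound RNA. Of the lower calls, 4 in microglia, 1 in oligodendrocytes and 1 in endothelium were of markers that passed the level minimum only through the unbound group, and 1 of the higher endothelial calls was of a marker that passed only through TRAP. None of these markers was at 0, and their part in the differences of the Slc25 genes was not tested.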

How the data were processed

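Gene expression was measured in 3 TRAP and 3 unbound cortex samples on Affymetrix arrays after 2-cycle amplification of 15 ng of RNA, per the labels' protocols. What the authors deposited are linear-scale intensities computed with GCRMA, per the submitters' processing notes. Its version, and whether all 6 arrays were processed in 1 run, are not given in the sources used here. GCRMA compresses low values, so folds against a level near background are imprecise. The series text speaks of averaged replicates, but the table holds 1 column an array, and 0 columns were left unused.

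Groups and replicate numbers came from the sample labels. Log2 intensity, without a pseudocount, was compared between groups in R 4.3.3 by the moderated test of limma 3.58.1 (functions lmFit and eBayes, two-sided, no other term) over the 22591 probe sets with a mean of 50 in at least 1 group. The series text recommends this minimum but can also be read as asking for it in both groups. P-values were Benjamini-Hochberg adjusted over these probe sets and called under 0.05. The fit was tested on simulated data. Folds and standard errors are from the same fit, and levels are not compared between genes.

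The members and lists were chosen with earlier results of these data known. Values on every array were to be given for genes called with an absolute log2 fold change of 1 or more, for the gene with the lowest adjusted p in each role group and for genes whose probe sets were called in opposite directions. From each related list up to 4 called genes with the largest change were to be named. Other genes given, and the pairs of relatives, were chosen after their values were seen. All 44 symbols matched the RefSeq table by Entrez ID, and genome coordinates are given only for its promoter windows.

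Deviations from the group means of same-numbered TRAP and unbound samples correlated at 0.42, 0.45 and 0.37 across probe sets, and those of other pairs at -0.31 to -0.096, so the numbers were taken to pair the samples, on the data alone. The main fit left this pairing out, and the fit with the replicate number as a block is the alternative that uses it. Alternatives changed the level minimum, the scaling, the representative probe set, the test, the block and the arrays used.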

Additional observations from a re-analysis of the deposited data

How the results depend on the processing

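The number and direction of calls among the Slc25 genes depended on the scaling of the arrays and on the size tested against. On the deposited values 6 were higher and 19 lower, after centring 19 and 7, after quantile normalisation 11 and 12, against a 2-fold change (limma's treat) 1 and 3, and with probe sets of repeated values left out 4 and 8 of 19 tested. Over Slc25 probe sets the 9 higher and 30 lower became 38 and 10 after centring, 21 and 18 after quantile normalisation, 1 and 4 against a 2-fold change, and 5 and 12 without repeated values, and 16 were higher without the level minimum. Over all probe sets the 4663 higher and 10767 lower became 11073 and 22216 without the minimum, 9928 and 5712 after centring, 863 and 2144 against a 2-fold change, 1855 and 4065 without repeated values, and 7087 were higher after quantile normalisation. Over all genes the 2797 higher and 5505 lower became 4809 and 8367 without the minimum, 5727 and 2663 after centring, 555 and 813 against a 2-fold change, and 1168 and 2300 without repeated values. Among the related mitochondrial genes the 28 higher and 27 lower became 53 and 8 after centring, 1 and 1 against a 2-fold change, and 15 and 9 without repeated values. Among Slc25 genes called on the deposited values or under the other scaling, centring turned the sign of the log2 fold change of Slc25a3 to 0.26, Slc25a4 to 0.36, Slc25a10 to 0.29, Slc25a12 to 0.36, Slc25a14 to 0.35, Slc25a15 to 0.17, Slc25a16 to 0.11, Slc25a22 to 0.034, Slc25a26 to 0.28, Slc25a33 to 0.34 and Slc25a46 to 0.026, and quantile normalisation turned that of Slc25a26 to 0.083. Centring adds the same amount to every gene by construction, and the cause of the unequal array medians was not tested. Leaving out 1 replicate at a time gave 4 to 6 Slc25 genes higher and 17 to 20 lower, 6 to 9 Slc25 probe sets higher and 29 to 31 lower, 3978 to 4617 of all probe sets higher and 9634 to 10246 lower, 2422 to 2798 of all genes higher and 4843 to 5192 lower, and 23 to 29 related genes higher and 22 to 27 lower. With the replicate number as a block, 6 Slc25 genes were higher and 17 lower, since Slc25a4, Slc25a30 and Slc25a32 lost their call and Slc25a40 gained one, and the block changed no other call among the 38 genes. Of their other probe sets 5 gained a call. With a minimum of 50 in both groups Slc25a4 was not called (adjusted p = 0.050), and Slc25a30 was not called without the minimum or with values under 50 raised to 50 (adjusted p = 0.052 in each). Levels near the minimum limit what the folds of Slc25a27, Slc25a34 and the third probe set of Slc25a51 can show.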
